A study of Sus scrofa with 4 samples.

Results

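The genes described here are 42 homeobox transcription factors that lie outside the HOX clusters, out of 29263 genes counted in sorted pig lung cells. They were chosen by name from a fixed list, and all 42 were found in the count tables, TSHZ2 through its Ensembl identifier. All 4 libraries came from pig lung, and every animal carried the LGR5-H2B-GFP allele, a knock-in whose fluorescent histone reports LGR5 expression. Cells were sorted by fluorescence into a bright fraction, GFP-HI (2 biological replicates), and a fraction without signal, GFP-NEG (2 biological replicates), so the controls carry the allele too, with dead cells left out by propidium iodide. The sorting text covers adult and fetal lung together. Only the name of the authors' table of the comparison says that the animals were adult, and the labels do not say whether the EPCAM and NGFR antibodies were used for these libraries.

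Homeobox factors share the homeodomain, a DNA-binding fold of helices in which the last helix reads the major groove. Because many homeodomains recognise similar short sites, their partners matter: TALE proteins of the MEIS, PBX and PKNOX families bind next to HOX proteins and to each other, sine oculis proteins such as SIX4 and SIX5 work with EYA co-activators, LIM-homeodomain proteins work through LDB adaptors, and ZEB proteins recruit CTBP co-repressors. Several of the genes are used as markers of mesenchyme (PRRX1, MEOX2), others of lymphocytes (SATB1) or of blood and endothelial lineages (HHEX).

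The libraries held 24200550 and 24689986 counts in GFP-HI against 6292253 and 7045652 in GFP-NEG, so GFP-HI was sequenced 3.67 times as deeply. LGR5, the gene that carries the reporter, stood at 146 and 152 CPM (counts per 1000000 counts, scaled by the TMM method) in the GFP-HI libraries and at 1.55 and 0.767 CPM in the GFP-NEG libraries. Levels of cell type markers differed between the groups as well. All 9 fibroblast markers examined were higher in both GFP-HI libraries, with summed levels of 81751 and 72295 CPM against 25288 and 9021 CPM in GFP-NEG replicates 1 and 2. Cartilage, endothelial, myeloid and lymphocyte markers were summed at higher levels in both GFP-NEG libraries, and GFP-NEG replicate 1 had more fibroblast and cartilage marker RNA (7439 against 965 CPM for cartilage) but less of the leukocyte gene PTPRC (687 against 1214 CPM) than GFP-NEG replicate 2. In such bulk fractions, fewer cells of a type and less RNA per cell cannot be told apart.

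GFP-HI cells had more RNA of MEIS2, TSHZ2 and TSHZ3, and less of SATB1 and HHEX. ZEB1 and PRRX1 were also higher, with log2 fold changes of 2.32 and 2.40, or 1.96 and 1.74 without GFP-NEG replicate 2. LHX6 was lower, but had enough counts for a test through GFP-NEG alone. Of the 42 genes, 33 had enough counts to be tested. At an FDR under 0.05 (the Benjamini-Hochberg adjusted p from edgeR's quasi-likelihood test over all 19682 tested genes), 9 were higher in GFP-HI, namely MEOX2, PRRX1, MEIS1, MEIS2, PBX3, SIX5, ZEB1, TSHZ2 and TSHZ3. Another 11 were lower, namely MEOX1, PITX1, IRX3, SIX4, DLX3, HHEX, LHX6, LHX9, ISL1, ZFHX4 and SATB1, and 13 did not pass. Over all tested genes, 36% were called in either direction, 8.35% higher and 27.6% lower, against 27.3% and 33.3% of the 33 homeobox genes, so the share called lower was close to that of all genes. The median log2 fold change of the 33 was 0.42, beside -0.25 over all tested genes, but it was -0.49 over all 42 with no filter on low counts and -0.65 under DESeq2. Both GFP-HI libraries lay above both GFP-NEG libraries for 16 of the 33 and below them for 13, beside 27.7% and 42% of all tested genes. Without GFP-NEG replicate 2, 3 were called higher and 6 lower, and the lower calls numbered 4, 3 and 6 without GFP-HI replicate 1, GFP-HI replicate 2 or GFP-NEG replicate 1. The 9 higher genes each passed the filter on low counts in both groups. Of the 11 lower genes, 8 passed it through GFP-NEG alone, the group where they were high, so the filter favoured a lower call for them. It did not force one, as MSX1 also passed through GFP-NEG alone and was not called. The 4 libraries are 2 against 2, and a p-value speaks for these samples only. The spread behind it was the trend over all tested genes at a given level. A p-value or standard error therefore does not follow a gene's own spread between replicates.

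**Figure D1:**
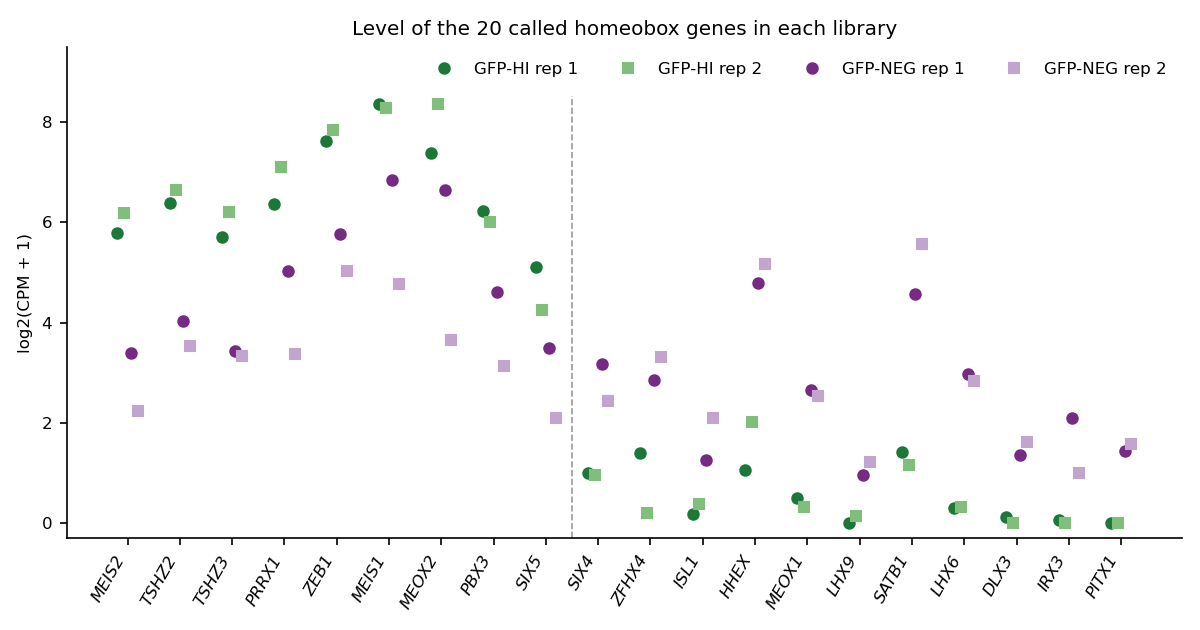
Level of the 20 homeobox genes past the threshold, as log2(CPM + 1), with one point for each library and no averaging; genes left of the dashed line were higher in GFP-HI and genes right of it lower. Both green points lie above both purple points for each of the 9 genes on the left, with the GFP-NEG replicates far apart for MEOX2 (99.1 and 11.6 CPM) and MEIS1 (113 and 26.3 CPM).

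Among the MEOX, PRRX and PITX genes, MEOX2 and PRRX1 rose and MEOX1 and PITX1 fell. MEOX2, a factor of mesoderm and of mesenchymal and vascular cells, was at 166 and 329 CPM in GFP-HI replicates 1 and 2 and at 99.1 and 11.6 CPM in GFP-NEG. The groups did not overlap, but the 2 GFP-NEG libraries lay further apart than GFP-NEG replicate 1 from GFP-HI replicate 1. This gave a log2 fold change of 2.16 ± 0.61 (SE, FDR 0.0020). Within replicate 1 the difference in log2(CPM + 1) was 0.74 and within replicate 2 it was 4.71. Leaving out GFP-NEG replicate 2 ended the MEOX2 call (log2 fold change 1.28, FDR 0.48), as did leaving out GFP-HI replicate 2 (1.62, FDR 0.17), and it stood at 4.46 without GFP-NEG replicate 1.

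PRRX1, a factor of limb and craniofacial mesenchyme that also marks fibroblasts, was at 81.0 and 136 CPM in GFP-HI against 31.7 and 9.43 CPM in GFP-NEG. Both GFP-HI libraries stood well above both controls. PRRX1 rose by 2.40 ± 0.55 (SE) on the log2 scale (FDR 0.00014). Without GFP-NEG replicate 2 it was 1.74 and no longer called (FDR 0.18), and 3.57 without GFP-NEG replicate 1. Its paralog PRRX2 was at 3.99 and 2.78 CPM against 2.02 and 1.64 CPM. The PRRX2 groups did not overlap, but the log2 fold change of 0.89 ± 1.12 did not pass (FDR 0.58).

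MEOX1, the paralog of MEOX2 with a role in somites, went the other way. Its counts were 9 and 5 in GFP-HI against 34 and 44 in the shallower GFP-NEG libraries, or 0.408 and 0.248 CPM against 5.28 and 4.82 CPM. The log2 fold change was -3.91 ± 1.26 (FDR 0.0073). Without GFP-HI replicate 1 or 2 the FDR was 0.051 and 0.078. MEOX1 made up 0.245% of the counts of the pair in GFP-HI replicate 1 (95% Wilson interval 0.129% to 0.465%) and 0.0752% in GFP-HI replicate 2 (0.0321% to 0.176%). In GFP-NEG it made up 5.06% (3.64% to 6.99%) and 29.3% (22.6% to 37.1%). These intervals cover counting error only.

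PITX1, a hindlimb and pituitary factor, had 0 counts in both GFP-HI libraries but 11 and 18 in GFP-NEG, at 1.71 and 1.97 CPM. Against a floor of 3 counts per library, it was at least 11.5-fold lower in GFP-HI. The FDR was 0.00019, and 0.068 and 0.071 when GFP-HI replicate 1 or 2 was left out. Without GFP-NEG replicate 2 it had too few counts to be tested.

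The tested TALE genes were higher or did not pass, except the Iroquois gene IRX3, which was lower. MEIS1, a factor of blood, heart and limb development, was at 330.1 and 311 CPM in GFP-HI against 113 and 26.3 CPM in GFP-NEG. The GFP-HI replicates were close to each other, and the GFP-NEG replicates were far apart, replicate 1 being the higher, as for MEOX2. The MEIS1 log2 fold change was 2.20 ± 0.64 (FDR 0.0027). It was 1.46 without GFP-NEG replicate 2 (FDR 0.41), 3.66 when GFP-NEG replicate 1 was left out, and 2.28 without GFP-HI replicate 2 (FDR 0.053).

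MEIS2, its paralog in heart, palate and neural crest, was at 54.2 and 71.7 CPM against 9.47 and 3.73 CPM. Its increase of 3.26 ± 0.57 on the log2 scale was the largest of the 33 tested genes (FDR 5.7e-07), and it was called in each fit that left out 1 library (2.69 to 4.13). MEIS2 supplied 13.8% and 18.5% of all MEIS counts in GFP-HI against 7.53% and 12.3% in GFP-NEG, with 95% Wilson intervals of 13.1% to 14.6%, 17.7% to 19.4%, 5.91% to 9.56% and 8.92% to 16.7%. MEIS3 was at 7.75 and 4.26 CPM against 2.95 and 0.329 CPM, the last from 3 counts. Its log2 fold change of 1.91 ± 1.02 did not pass (FDR 0.14), but did so with the replicate number as a block (2.35, FDR 0.049) and without GFP-NEG replicate 1 (4.21, FDR 0.015).

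PBX3, which binds DNA with MEIS and HOX proteins, was at 73.8 and 63.1 CPM in GFP-HI against 23.4 and 7.78 CPM in GFP-NEG, and rose by 2.14 ± 0.54 (FDR 0.00041). The groups were apart, and the call was lost without GFP-NEG replicate 2 (1.51, FDR 0.26), while it was 3.19 without GFP-NEG replicate 1. Its relative PBX2 was at 5.39 and 5.40 CPM against 7.14 and 6.25 CPM and did not pass (-0.31 ± 0.81). PKNOX1, a further PBX partner, was at 45.2 and 35.9 CPM against 24.4 and 17.0 CPM (0.97 ± 0.53, FDR 0.14). TGIF1, a TALE co-repressor of SMAD signalling, was at 65.9 and 73.7 CPM against 73.4 and 43.5 CPM. The TGIF1 groups overlapped, and its log2 fold change of 0.26 ± 0.52 was negative under upper-quartile scaling, library size alone, the odorant receptor filter described further on and without GFP-NEG replicate 2.

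The Iroquois genes, TALE factors that pattern limbs, heart and nervous system, were near 0 in GFP-HI. IRX3 had 1 and 0 counts in GFP-HI against 21 and 9 in GFP-NEG, with levels of 3.26 and 0.987 CPM in the latter. It was called lower (FDR 0.00083), but not without GFP-HI replicate 1 (FDR 0.058) or replicate 2 (0.11), and it was not tested without GFP-NEG replicate 1. IRX1, IRX2 and IRX5 had 0 to 2 counts in GFP-HI against 0 to 7 in GFP-NEG and could not be tested.

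**Figure D2:**
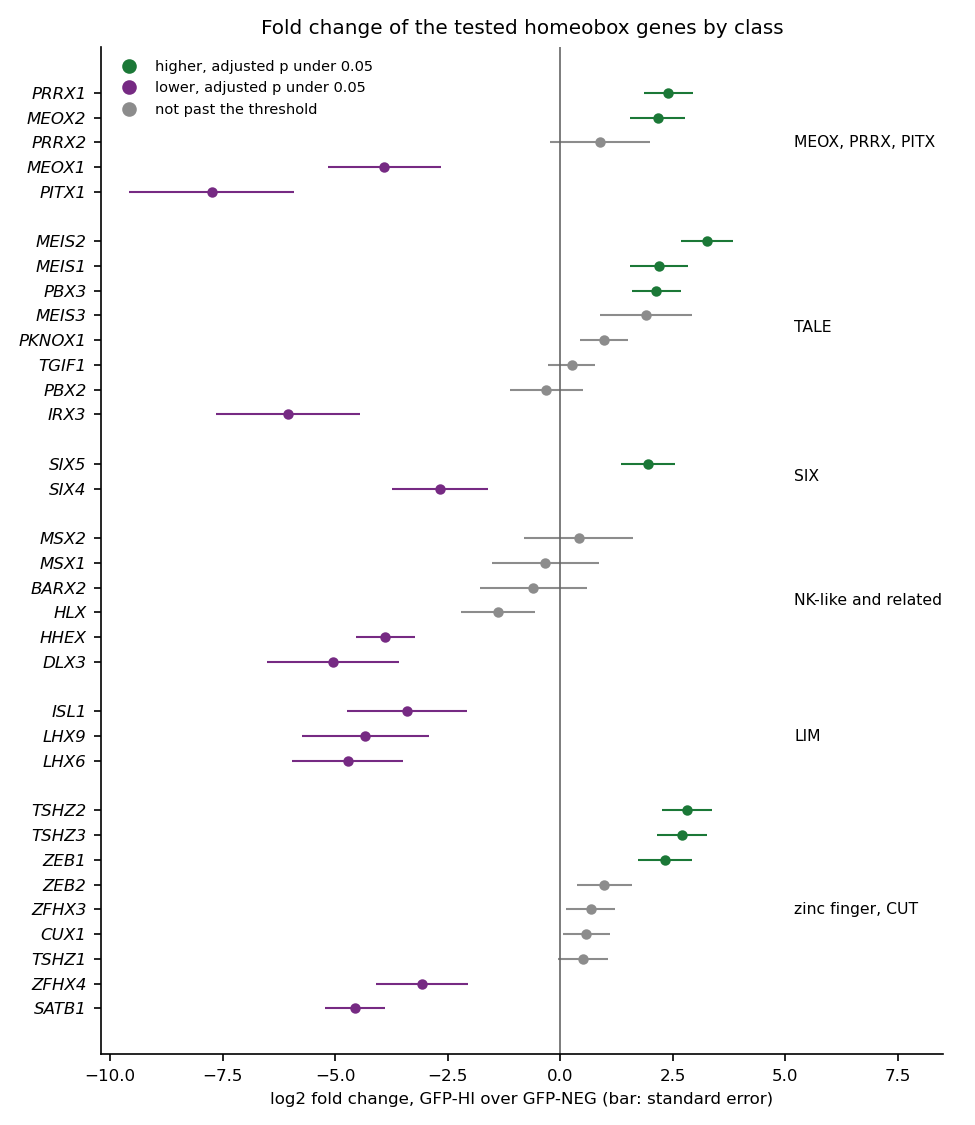
Log2 fold change of GFP-HI over GFP-NEG for the 33 tested homeobox genes by class, with bars for the standard error from edgeR, n = 2 libraries in each group. Of the tested genes, 3 of 8 TALE genes and 3 of 9 zinc finger and CUT genes were called higher. The share was 2 of 5 for MEOX, PRRX and PITX genes, 1 of 2 for sine oculis and 0 of 6 for NK-like genes. Called lower were 1 of 8 TALE genes and 2 of 9 zinc finger and CUT genes. Of MEOX, PRRX and PITX genes 2 of 5 were lower, beside 1 of 2 sine oculis and 2 of 6 NK-like genes. Over all tested genes, 8.35% were higher and 27.6% lower. The 3 tested LIM genes were all lower, and each passed the filter on low counts through GFP-NEG alone. Fitted values of genes near 0 in GFP-HI, such as PITX1, depend on the fit's prior count.

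In the sine oculis family, SIX5 rose and SIX4 fell. SIX5, which lies beside DMPK, was at 33.7 and 18.1 CPM in GFP-HI against 10.2 and 3.29 CPM in GFP-NEG. SIX5 rose by 1.95 ± 0.61 on the log2 scale (FDR 0.0053), 3.03 without GFP-NEG replicate 1, 1.30 without GFP-NEG replicate 2 (FDR 0.38) and 1.54 without GFP-HI replicate 1 (FDR 0.14). SIX4, a factor of muscle precursors, was at 0.997 and 0.942 CPM against 8.07 and 4.39 CPM. Its log2 fold change was -2.67 ± 1.07 (FDR 0.038), and it was not called without GFP-HI replicate 1 (FDR 0.11), GFP-HI replicate 2 (0.12) or GFP-NEG replicate 1 (0.26). SIX4 took 2.87% and 4.94% of the counts of SIX4 and SIX5 together in GFP-HI (95% Wilson intervals 1.90% to 4.31% and 3.18% to 7.58%) and 44.1% and 57.1% in GFP-NEG (35.4% to 53.1% and 45.5% to 68.1%). SIX2, a kidney progenitor factor, had 2 and 0 counts against 1 and 16 and was not tested.

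Of the zinc finger factors with homeodomains, TSHZ2, TSHZ3 and ZEB1 rose. TSHZ2, a teashirt-family repressor, was at 83.2 and 98.9 CPM in GFP-HI against 15.4 and 10.6 CPM in GFP-NEG. TSHZ3, known from smooth muscle differentiation in the ureter, was at 51.2 and 72.8 CPM against 9.78 and 9.10 CPM. Replicates of both genes lay close together and the groups far apart. The log2 fold changes were 2.81 ± 0.55 for TSHZ2 (FDR 1.1e-05) and 2.71 ± 0.55 for TSHZ3 (FDR 2.3e-05). Both were called in each fit that left out 1 library, at 2.53 to 3.15 and 2.53 to 3.09. The third teashirt gene, TSHZ1, was at 22.2 and 24.5 CPM against 17.9 and 15.0 CPM and did not pass (0.51 ± 0.56, FDR 0.51). TSHZ1 supplied 41.5% and 43.2% of teashirt counts in GFP-NEG (95% Wilson intervals 35.9% to 47.4% and 37.9% to 48.7%), and 14.2% and 12.5% in GFP-HI (13.1% to 15.4% and 11.5% to 13.6%).

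ZEB1, a repressor of epithelial genes in mesenchymal cells, was at 196 and 228 CPM in GFP-HI against 53.3 and 31.8 CPM in GFP-NEG. The rise of ZEB1 was 2.32 ± 0.60 on the log2 scale (FDR 0.00061), and 1.96 without GFP-NEG replicate 2, where it was not called (FDR 0.16). ZEB2, its paralog, which leukocytes also express, was at 256 and 255 CPM against 175 and 84.3 CPM. The ZEB2 groups were apart but the log2 fold change of 0.98 ± 0.62 did not pass (FDR 0.22). ZEB1 took 43.4% and 47.3% of the ZEB counts in GFP-HI (95% Wilson intervals 42.4% to 44.4% and 46.3% to 48.2%) and 23.4% and 27.4% in GFP-NEG (21.3% to 25.6% and 24.8% to 30.1%). CDH1, the epithelial cadherin that ZEB proteins repress, was at 16.4 and 4.36 CPM in GFP-HI against 39.4 and 27.7 CPM in GFP-NEG (log2 fold change -1.69, FDR 0.0095). It was the 1 of 6 epithelial markers called lower, and the list summed to 126 and 191 CPM against 404 and 116 CPM. The part of epithelial cells in these values was not tested.

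ZFHX4, a large protein with several zinc fingers and homeodomains, was at 1.63 and 0.149 CPM in GFP-HI against 6.21 and 8.88 CPM in GFP-NEG. ZFHX4 passed at a log2 fold change of -3.07 ± 1.02 (FDR 0.010), at -2.10 without GFP-HI replicate 2 (FDR 0.15), -2.82 without GFP-NEG replicate 2 (FDR 0.084) and -5.42 without GFP-HI replicate 1. Its relative ZFHX3 was at 31.4 and 24.2 CPM against 18.3 and 16.4 CPM and did not pass (0.68 ± 0.55, FDR 0.35). CUX1, a broadly expressed CUT factor, was at 76.3 and 81.2 CPM against 54.8 and 50.6 CPM (0.58 ± 0.52, FDR 0.42). Neither ZFHX3 nor CUX1 had overlapping groups.

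SATB1, a CUT-family chromatin organiser of T cells, was at 1.68 and 1.24 CPM in GFP-HI against 22.7 and 46.5 CPM in GFP-NEG. The higher GFP-NEG value was that of replicate 2. The log2 fold change was -4.56 ± 0.66, with the smallest FDR of the 33 tested genes (1.3e-09), and it stayed between -4.94 and -3.99 when single libraries were left out. HHEX, a factor of blood, endothelial and liver development, was at 1.09 and 3.07 CPM against 26.9 and 34.8 CPM (log2 fold change -3.89 ± 0.65, FDR 2.0e-07) and was called in each fit that left out 1 library. HLX, its NK-like relative in blood cells, was at 3.26 and 3.42 CPM against 8.85 and 8.55 CPM and did not pass (-1.38 ± 0.82, FDR 0.19).

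Most blood and endothelial markers were lower in GFP-HI, as SATB1 and HHEX were. PTPRC, the pan-leukocyte gene, was at 45.9 and 121 CPM in GFP-HI against 687 and 1214 CPM in GFP-NEG. Of 9 lymphocyte markers, 7 were lower in GFP-HI and none was higher, with sums of 136 and 253 CPM against 457 and 985 CPM in GFP-NEG replicates 1 and 2. The T cell gene CD3E (2.31 and 6.20 against 35.1 and 112 CPM) was, like SATB1, highest in GFP-NEG replicate 2. The 2 lymphocyte markers that did not pass were CD3G and CD79A. CD3G was at 38.9 and 42.5 against 52.2 and 61.0 CPM (log2 fold change -0.47), and CD79A at 77.8 and 159 against 107 and 252 CPM (-0.60). Of 5 myeloid markers 4 were lower, with sums of 172 and 74.2 CPM against 1892 and 1263 CPM. Of 9 endothelial markers 8 were lower, with sums of 217 and 215 CPM against 1418 and 586 CPM. The myeloid and endothelial sums were higher in GFP-NEG replicate 1 than in replicate 2, unlike SATB1 and HHEX. The part of these cells in the SATB1 and HHEX results was not tested.

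The fibroblast markers rose in GFP-HI, as the genes called higher did. All 9 markers were above GFP-NEG in both GFP-HI libraries, 6 past the threshold, with a median log2 fold change of 3.53. Like MEOX2, PRRX1, MEIS1, MEIS2, PBX3, SIX5, ZEB1, TSHZ2 and TSHZ3, they were summed higher in GFP-NEG replicate 1 than in replicate 2. PDGFRA, a receptor of mesenchymal cells, was at 822 and 563 CPM in GFP-HI against 97.2 and 22.7 CPM in GFP-NEG. The 9 markers ranged from 1.74 to 4.40, beside 1.95 to 3.26 for the 9 homeobox genes, and the part of cell makeup in the rise of the latter was not tested. The smooth muscle and pericyte markers were summed at 1427 and 2021 CPM against 2215 and 343 CPM, an overlap set mainly by ACTA2 (751 and 1706 against 1617 and 187 CPM). Of these 8 markers, MYH11 (log2 fold change -2.34), RGS5 (-2.10) and DES (-1.65) were called lower and CSPG4 (1.96) higher.

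**Figure D3:**
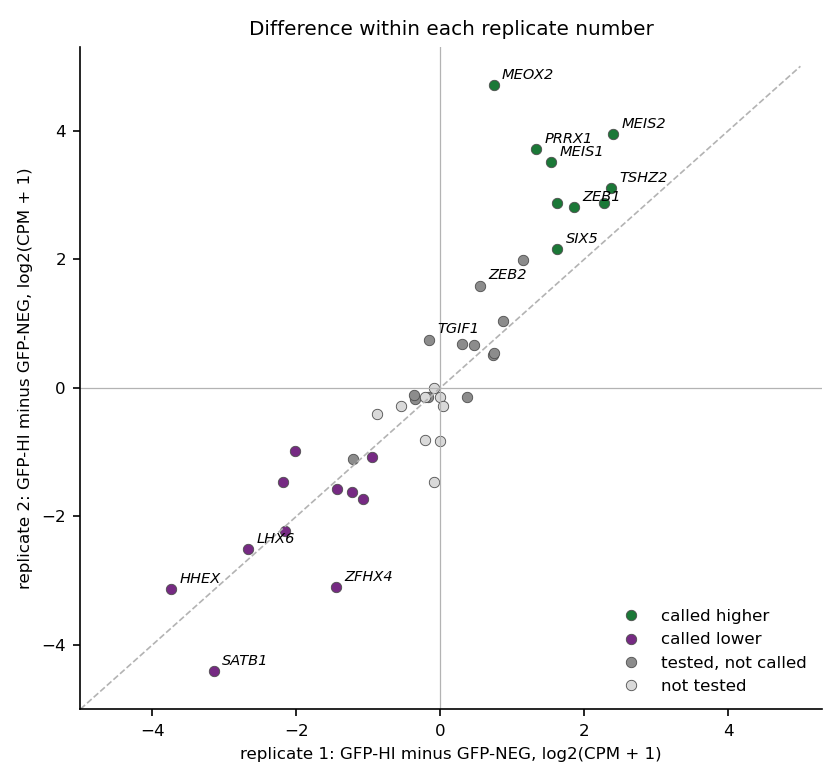
Difference between GFP-HI and GFP-NEG in log2(CPM + 1) within replicate 1 (horizontal) and replicate 2 (vertical) for the 42 homeobox genes, 1 point a gene, with equal differences on the dashed line. All 9 genes called higher lie in the upper right and above the line, with MEOX2 at 0.74 and 4.71, and all 11 called lower lie in the lower left.

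The remaining factors had low counts. Of 4 LIM-homeodomain genes, 3 were tested and called lower, each having passed the filter through GFP-NEG alone. LHX6, known from interneurons and tooth and palate mesenchyme, had 5 and 5 counts in GFP-HI against 44 and 56 in GFP-NEG, at 0.227 and 0.248 CPM against 6.83 and 6.14 CPM. LHX6 had a log2 fold change of -4.72 ± 1.23 (FDR 0.00069) and was called in each fit that left out 1 library. ISL1, of motor neurons and heart progenitors, had 3 and 6 counts against 9 and 30 (FDR 0.033) and was called in 0 of the 4 fits that left out a library (FDR 0.11 to 0.54). LHX9, a gonad and limb factor, had 0 and 2 counts against 6 and 12 (FDR 0.0083) and was not called without GFP-HI replicate 1 or 2 (0.31 and 0.14), nor tested without either GFP-NEG library. With the replicate number as a block, neither ISL1 (FDR 0.10) nor LHX9 (0.12) was called. LHX2 had 0 and 5 counts against 0 and 11 and was not tested.

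Of the NK-like and related genes, DLX3, a factor of skin and bone, had 2 and 0 counts in GFP-HI against 10 and 19 in GFP-NEG. It was called lower (FDR 0.0027), but not without GFP-HI replicate 1 (FDR 0.069), GFP-HI replicate 2 (0.17) or GFP-NEG replicate 1 (0.11), and was not tested without GFP-NEG replicate 2. MSX1 and MSX2, targets of BMP signalling in mesenchyme, had at most 33 counts in any library, and BARX2 at most 17. Their log2 fold changes of -0.33 ± 1.19, 0.42 ± 1.21 and -0.60 ± 1.19 did not pass. DLX5, EMX2, NKX3-2 and BARX1 had at most 6 counts in any library and were not tested. For a gene with 0 counts, the depth allows up to 0.136 and 0.149 CPM in GFP-HI against 0.466 and 0.329 CPM in GFP-NEG, at 3 counts a library and for counting error only.

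The genes called lower were set beside odorant receptor genes, which are best known from the nose and which had counts mainly in GFP-NEG. Of these, 5 and 2 were detected in the deeper GFP-HI libraries and 57 and 91 (54.3% and 86.7% of those counted) in GFP-NEG. Their 95th percentile was 1.37 CPM in GFP-NEG replicate 1 and 4.89 CPM in GFP-NEG replicate 2, and 0 in both GFP-HI libraries. Only HHEX, SATB1, LHX6 and ZFHX4 of the 11 genes called lower exceeded this level in both GFP-NEG libraries. The other 7, MEOX1, PITX1, IRX3, SIX4, DLX3, LHX9 and ISL1, were at or under it in 1 or both, MEOX1 narrowly (4.82 against 4.89 CPM). Among genes above 4.89 CPM in at least 2 libraries, a filter chosen after seeing the data, 6 homeobox genes were higher. HHEX, SATB1, LHX6 and ZFHX4 were lower. These 4 were under 4.89 CPM in both GFP-HI libraries and passed this filter through GFP-NEG alone, so their calls after it add no separate support. Of the higher genes, MEIS2 needed GFP-HI to pass, being at 9.47 and 3.73 CPM in GFP-NEG. Its call after this filter adds no separate support either. With this filter MEIS1 (FDR 0.077), MEOX2 (0.15) and SIX5 (0.11) were not called.

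**Figure D4:**
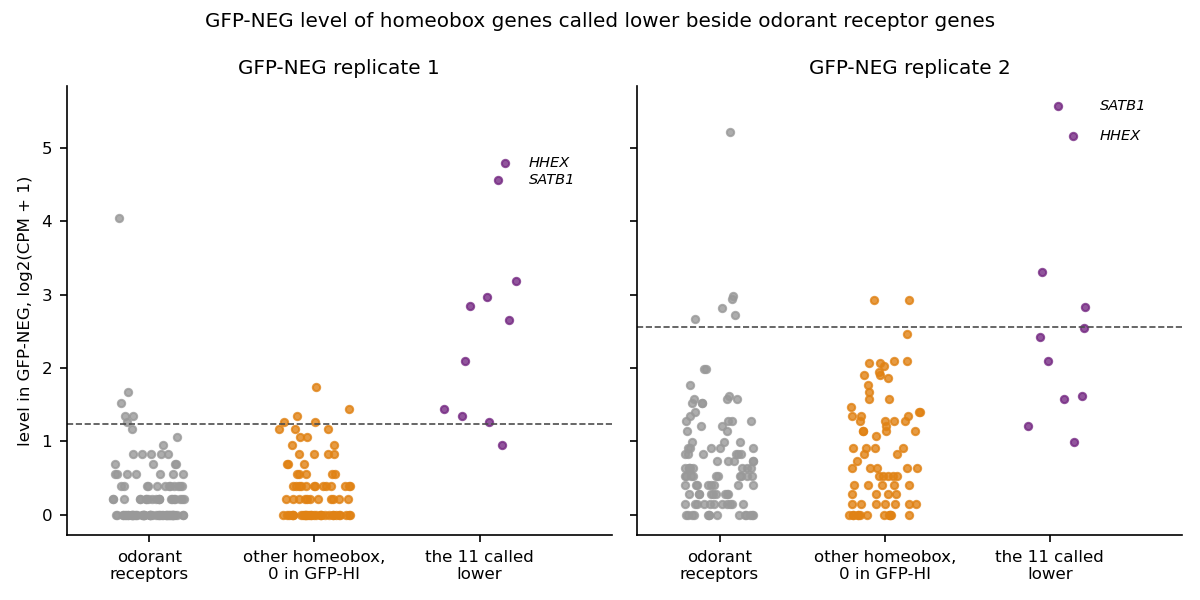
Level in each GFP-NEG library, as log2(CPM + 1), of the odorant receptor genes, of other homeobox genes with 0 counts in GFP-HI, and of the 11 homeobox genes called lower, 1 point a gene; the dashed line is the 95th percentile of the odorant receptors (1.37 and 4.89 CPM). SATB1 and HHEX lie far above the line in both libraries, while 7 of the 11 lie at or under it in at least 1.

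A list of other homeobox genes was tested in the same fit. Of 132 further homeobox genes outside the HOX clusters, 121 were in the tables and 50 could be tested, with 3 called higher, 22 lower and a median log2 fold change of -2.64 (-2.38 with genes at 0 set to the floor of 3 counts). These are 6% higher and 44% lower, beside 8.35% and 27.6% of all tested genes, among which lower calls also outnumbered higher ones. All of those called lower except PAX5 passed the filter on low counts through GFP-NEG alone. The filter favoured a lower call for them, so the 44% is not read as a trait of homeobox genes. Leaving out 1 library gave 0 higher and 4 lower when it was GFP-NEG replicate 2, 1 and 6 without the GFP-HI library of replicate 2, 2 and 9 without that of replicate 1, and 3 and 22 without GFP-NEG replicate 1. Those called higher included PKNOX2, a TALE factor (34.5 and 18.2 against 7.61 and 7.67 CPM, log2 fold change 1.78, FDR 0.010), and ZHX3, a zinc finger and homeodomain repressor (log2 fold change 1.59, FDR 0.0098). PAX5, the B cell identity factor, was at 1.81 and 2.03 CPM against 20.5 and 65.8 CPM (log2 fold change -4.48 ± 0.63, FDR 4.0e-10), and was above the odorant receptor level in both GFP-NEG libraries. The next 5 by p were LMX1B, CDX4, PAX7, POU2F3 and SIX6, factors of limb, gut, muscle, tuft cells and eye, at 0 or 1 count in each GFP-HI library and between 1.09 and 6.58 CPM in GFP-NEG. In all, 44 of the 121 had 0 counts in both GFP-HI libraries and counts in both GFP-NEG libraries, as did 4 of the 42 and 49 odorant receptors (46.7%).

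Partner proteins of these families were tested likewise. Of 20 listed partners 18 were in the tables and 17 were tested, with 4 higher, 3 lower and a median log2 fold change of -0.09. The shares were 23.5% higher and 17.6% lower, beside 8.35% and 27.6% of all tested genes. Without GFP-NEG replicate 2, 0 were higher and 1 lower, without GFP-HI replicate 2, 2 and 1, without GFP-HI replicate 1, 3 and 1, and without GFP-NEG replicate 1, 4 and 2. SSBP2 and LDB2, of the adaptor complex of LIM-homeodomain proteins, rose by 2.02 and 1.39 on the log2 scale (FDR 0.0010 and 0.026). CTBP2, a co-repressor that ZEB proteins bind, rose by 1.77 (52.0 and 51.0 against 18.0 and 12.3 CPM, FDR 0.0040), and TLE1, a Groucho co-repressor, by 1.73 (FDR 0.0047). LMO2, which acts with LDB proteins in blood and endothelial cells, was lower (1.72 and 1.09 against 11.8 and 11.2 CPM, log2 fold change -3.02). DACH2 was lower from 0 counts in GFP-HI, at 1.09 and 1.86 CPM in GFP-NEG. TLE4 was the third lower gene. None of EYA1, EYA2, EYA3 and EYA4, the partners of SIX4 and SIX5, passed (log2 fold changes -0.91 to 0.25).

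**Figure D5:**
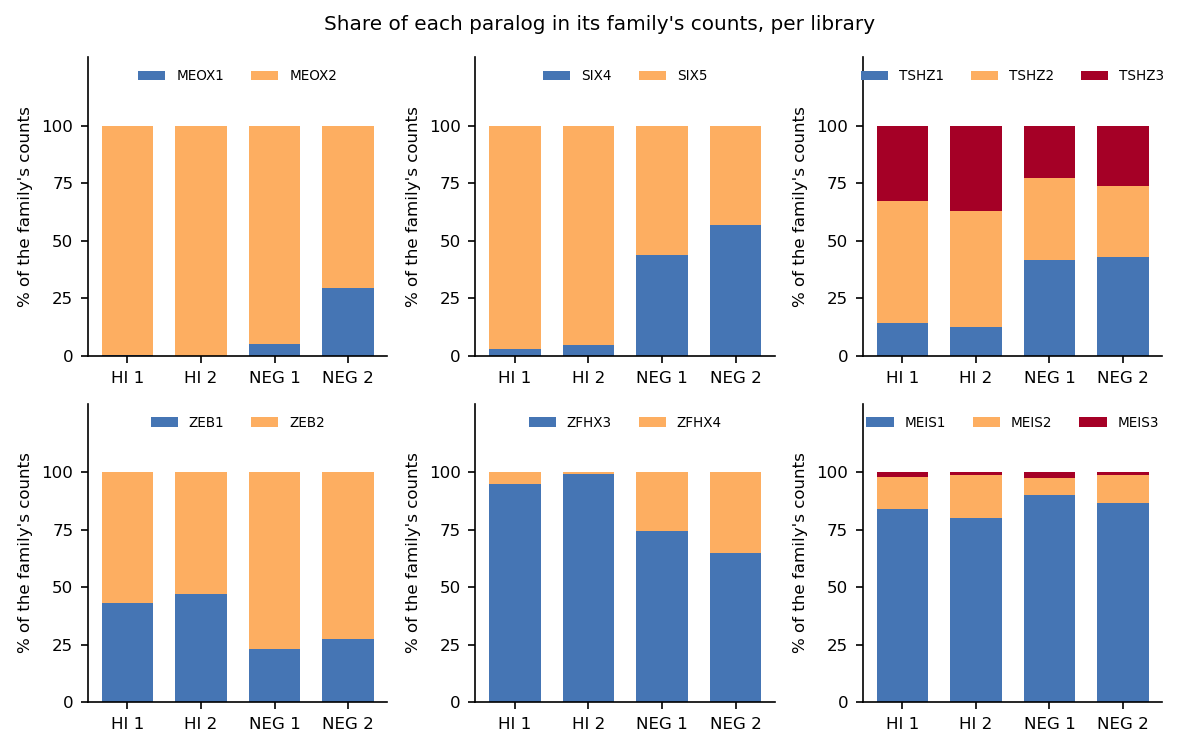
Percent of the counts of a family given by each paralog, in each of the 4 libraries (HI, GFP-HI; NEG, GFP-NEG; 1 and 2, replicate), with each bar stacked from 0 to 100. SIX4 takes 2.87% and 4.94% in GFP-HI against 44.1% and 57.1% in GFP-NEG, and TSHZ1 14.2% and 12.5% against 41.5% and 43.2%, while MEIS1 leads in all 4 libraries. Gene length also enters these shares, so they compare libraries and not genes.

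Genomic neighbours of the called homeobox genes are given beside the 36% of all tested genes that were called. Next to the genes called higher, 13 neighbouring protein-coding genes in the RefSeq annotation (Sscrofa11.1, used for gene order only) were tested, and 1 was called higher and 3 lower. The higher one was DMPK, beside SIX5 (log2 fold change 1.38, FDR 0.027), and reads of adjacent genes may be hard to separate where the strand setting is not given. AGMO, beside MEOX2, was lower (-5.97), as were ZNF217 beside TSHZ2 (-1.89) and ZNF536 beside TSHZ3 (-2.62). Next to the genes called lower, 15 neighbours were tested, with 3 higher and 1 lower. FTO, beside IRX3, was higher (log2 fold change 1.65), and EXOC6, beside HHEX, was lower (-2.63). These neighbours were named after their values were seen.

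Of the 42 genes, 27 were found by symbol in the authors' deposited table of the same comparison. At an adjusted p under 0.05 the authors' deposited table calls 8 of them higher (8.2% of all its genes) and 6 lower (11.2%), each of which was called the same way here. The authors' deposited table gives log2 fold changes of 3.26 for MEIS2, 2.40 for PRRX1, -4.58 for SATB1 and -3.90 for HHEX. These equal the values from DESeq2 run here on the raw counts, so the shared calls add no separate support. The calls of TSHZ2, PITX1, IRX3, DLX3, LHX9 and ISL1 were not compared with that table. TSHZ2 was not looked up there by its Ensembl identifier.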

How the data were processed

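RNA was measured in 4 libraries. Raw counts per gene, one table a library, were deposited by the authors. Per the submitters' processing notes, featureCounts, Subread 1.5.2 and DESeq2 1.37.6 were used, and the aligner, strand setting and build are not given in the sources used here, so overlapping genes are uncertain. The authors also deposited a comparison table with a log2 fold change and an adjusted p-value per gene, per the file headers. Its 8 other columns of values per sample were not used. Ensembl identifiers with a symbol in the name table (844) were renamed where the symbol was free (834).

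Counts were tested with edgeR 4.0.16 (glmQLFit and glmQLFTest, R 4.3.3) with TMM scaling, filterByExpr (a gene needs about 0.64 CPM in 2 libraries; 19682 kept, 99.8% of counts) and group as the only term. P-values were adjusted by Benjamini-Hochberg over all tested genes, with a threshold of 0.05. The genewise spread was moderated fully to the trend (common dispersion 0.239). CPM use the TMM scaling, and each standard error came from the fold change and its F statistic. The procedure was run on simulated data with the same dispersion for every gene and changes placed in well-counted genes only. That run does not speak to calls at low counts. Alternatives were RLE and upper-quartile scaling, library size alone, 2 other filters, DESeq2 1.42.0, a replicate block, thinning of GFP-HI to the GFP-NEG depth, leaving out each library and, chosen after seeing the data, a filter at the odorant receptor level. Depth ran from 6292253 to 24689986 counts.

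The headings of the deposited table name pigs 1 and 2 for both fractions, so equal replicate numbers may stand for 1 animal. Some of these headings stand over scaled counts of a different library, which leaves the pairing uncertain. The main test did not use the pairing, and among the alternatives only the replicate block did. Deviations of same-numbered libraries correlated across genes with an r of 0.19. The genes and lists were chosen with earlier results of these data known. Values were given for each gene past the threshold with groups apart, for up to 6 genes of each other list by smallest adjusted p, and as counts or ranges for the rest. The values of 1 other homeobox gene are not reported here.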

Additional observations from a re-analysis of the deposited data

How the results depend on the processing

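With 2 libraries in each group, single libraries set many calls. Of the 9 higher genes, MEIS2, TSHZ2 and TSHZ3 were called in each of the 13 alternatives, as were HHEX, LHX6 and SATB1 of the 11 lower ones. The scaling methods, both other filters, DESeq2, the block and thinning gave 9 or 10 higher genes, among them all 9. Leaving out 1 library gave 3 to 10 higher and 3 to 6 lower homeobox genes, 216 to 1635 higher and 1575 to 4999 lower genes in all, 0 to 3 higher and 4 to 22 lower among the other homeobox genes, and 0 to 4 and 1 to 2 among the partners. The lone library of a group is then assumed to vary like the other group. The replicate block gave 10 and 9 homeobox genes and, beyond MEIS3, ISL1 and LHX9, changed no call among them. Over all genes, 1083 were higher under upper-quartile scaling and 888 under library size alone, where 1 other homeobox gene was higher and higher genes made up 16.1% and 13.4% of calls against 23.2%. These scalings moved the median of all genes from -0.25 to -0.58 and -0.68. Thinning gave 3576 lower genes and 12 among the other homeobox genes, and DESeq2 gave 34 of these. Above the odorant receptor level, 457 genes were higher and 1314 lower, with 4 homeobox genes lower, 0 and 2 among the others and 1 partner higher, from fewer genes tested. Those 4, HHEX, LHX6, SATB1 and ZFHX4, passed that filter through GFP-NEG alone, so their calls there add no separate support. The same holds for MEIS2, which was above that level in both GFP-HI libraries but in 1 GFP-NEG library only. The median of the homeobox genes was -0.49 without a filter and -0.65 under DESeq2, where more low genes enter. The median of all genes was 0.082 above the odorant receptor level, and -0.59 to 0.032 when single libraries were left out. TGIF1 reversed to -0.035 (upper quartile), -0.14 (library size) and -0.0095 (odorant receptor level), and ran from -0.11 to 0.73 without single libraries, as MSX1 did from -0.86 to 0.39, MSX2 from -0.089 to 1.07 and BARX2 from -0.96 to 0.027. The cause was not tested.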
